A study of Mus musculus with 12 samples.

Results

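Chromatin accessibility was examined at the loci of Runx1, Runx2 and Runx3, the 3 mouse genes that encode the DNA-binding subunits of core binding factor. A region of open chromatin was counted to a locus when it overlapped the gene body extended by 20 kb on each side, which gave 126 of the 121336 regions that were measured: 44 at Runx1, 58 at Runx2 and 24 at Runx3. The choice used positions only and no accessibility value. Without the extension, the gene bodies held 38, 56 and 13 regions.

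The libraries came from ATAC-seq, in which a transposase inserts adapters into accessible DNA, of bone marrow cells from 8 to 12 weeks old C57BL/6 littermates. The mice were wild type (WT) or UREd/d, called URE here, which lack the upstream regulatory element (URE) of Spi1 in every cell of the body, and Spi1 encodes the transcription factor PU.1. Stem and progenitor cells with the LSK phenotype (Lin- Sca-1+ c-Kit+) and GMP (granulocyte-monocyte progenitors, Lin- Sca-1- c-Kit+ CD16/32+) were sorted after c-Kit bead enrichment, so both are mixed populations and are defined by their gates. Each of the 4 groups, LSK of either genotype (WT-LSK, URE-LSK) and GMP of either genotype (WT-GMP, URE-GMP), had 3 libraries.

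RUNX proteins bind DNA together with CBFβ and can activate or repress their targets. RUNX1 is needed for the emergence of blood stem cells and is often mutated in leukaemia, RUNX2 is best known as the master regulator of bone formation, and RUNX3 acts in T cells, NK cells and sensory neurons. Each gene has a distal promoter, P1, and a proximal promoter, P2, which give proteins with different first residues, and RUNX proteins are known to bind their own P1 promoters.

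Total counts ranged from 23072701 to 62204826 per library, and replicates of a group correlated with r of 0.94 to 0.98 across all regions. Over the 5 regions that lie 12 to 17 kb upstream of the Spi1 start codon, where the deleted element is found, summed accessibility in CPM (counts scaled to library size with TMM factors) ranged from 51.8 to 59.0 in WT-LSK against 4.38 to 4.81 in URE-LSK, and from 71.3 to 86.9 in WT-GMP against 4.17 to 7.16 in URE-GMP, so every library carried the genotype of its label. Of 6 GMP markers, 5 had a region at their start site (Mpo, Elane, Prtn3, Ctsg and Cebpe; Fcgr3 had none), and all 5 were called higher in GMP than in LSK in both genotypes. Of 7 LSK markers, 6 had such a region (not Ly6a), none was called between the cell types, and 3 were lower in WT-GMP at an adjusted p under 0.05 in edgeR's quasi-likelihood test. Between the genotypes 1 of these GMP markers, Ctsg, was called higher in URE in both cell types. Some marker lists of other cells also moved with genotype. Summed over the 5 of 6 neutrophil genes with a region, CPM ranged from 20.5 to 39.0 in WT-GMP and from 70.9 to 85.5 in URE-GMP. In LSK the sums were 10.1 to 12.9 in WT and 7.11 to 7.75 in URE. Of the 5, 3 were called higher in URE-GMP. The list was split in URE-LSK, where 2 were called higher (Camp and Ngp) and 1 lower (S100a8). Beside these counts, 11.5% of all promoter regions were called between the genotypes in LSK and 13.0% in GMP, in either direction. Over the 2 of 4 basophil or mast cell genes with a region, the sum was 7.38 to 11.4 in WT-LSK against 23.8 to 30.6 in URE-LSK, and 9.9 to 13.1 in WT-GMP against 24.8 to 34.5 in URE-GMP. Of 5 monocyte genes, 2 were called lower in URE in each cell type. The monocyte sum was 64.7 to 73.0 CPM in WT-LSK against 72.0 to 85.0 in URE-LSK, and 89.9 to 105.0 in WT-GMP against 70.5 to 86.4 in URE-GMP. Among the megakaryocyte (4 with a region), B cell (2), T cell (2) and erythroid (1) genes a single megakaryocyte and a single B cell gene were called, both lower in URE-GMP. The part of such cells in the values below was not tested, and in sorted populations fewer cells of a type cannot be told apart from less open chromatin per cell.

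On GRCm38, Runx1 lies at chr16:92601466-92826149 on the minus strand, Runx2 at chr17:44495987-44814797 on the minus strand and Runx3 at chr4:135120652-135177990 on the plus strand. Start sites of P1 and P2 are 128821, 78149 and 31844 bp apart. CPM are totals per region and so depend on its width. Regions are named here by the gene and by the distance of their centre, in kb, from the P1 start codon in the direction of transcription. Of the 126 regions, 7 lay within 500 bp of a P1 or P2 start, 3 lay at promoters of other genes inside the windows (Gm26626 at Runx1, Supt3 and Runx2os2 at Runx2), and 116 were non-promoter regions, most of them intronic. Supt3 overlaps the first part of Runx2, so regions there belong to both genes by position.

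The P1 promoters of all 3 genes carried a pair of RUNX motifs (AACCACA, searched on both strands) that is shown here because it is what the 3 loci share. In the RefSeq promoter sequences (GRCm38, 250 bases before to 50 after the start, 300 bases in all), 2 copies of the motif stood 1 base apart on the strand of the gene at each P1. The copies are in capitals in the following 30-base stretches, written 5′ to 3′ on the strand of the gene.
Runx1 P1, chr16:92826026-92826055, minus strand: tcataaacAACCACAgAACCACAagttggg
Runx2 P1, chr17:44814584-44814613, minus strand: tcacaaacAACCACAgAACCACAagtgcgg
Runx3 P1, chr4:135120502-135120531, plus strand: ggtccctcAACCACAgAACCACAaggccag
Such a pair stood in 5 of 32851 mouse promoter windows (0.0152%). Beside the 3 Runx genes these were Gm16225, whose window overlaps that of Runx3 P1 on the other strand, and Olfr24. At least 2 copies at any spacing were found in 0.204% of the windows and at least 1 in 5.27%. The P2 windows of Runx1 and Runx3 held no copy. Within the measured regions themselves, P1 of Runx1 held 5 copies, P1 of Runx2 3 and P1 of Runx3 3, and 0.12%, 0.395% and 0.559% of regions of like length held as many.

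Of the 7 promoter regions, 0 were called between the genotypes in either cell type, where called means an adjusted p under 0.05 and an absolute log2 fold change over 1 in edgeR's quasi-likelihood test over all regions. With offsets for GC content 1 of them, P1 of Runx2, reached 1.14 on the log2 scale in LSK, a called gain. Among all 19118 promoter regions 11.5% were called in LSK and 13.0% in GMP. At an adjusted p under 0.05 alone, 6 of the 7 were higher in URE-LSK (50.2% of all promoter regions passed in either direction) and 3 of the 7 in URE-GMP (50.9%). Their median log2 fold change was 0.36 in LSK and 0.22 in GMP, beside 0.22 and 0.16 over all promoter regions.

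P1 of Runx1 spans chr16:92824779-92826548. Its CPM were 50.2, 49.8 and 44.8 in WT-LSK, against 72.1, 62.9 and 63.9 in URE-LSK. In GMP they were 64.8, 45.1 and 43.9 in WT and 63.3, 66.0 and 65.4 in URE. The LSK groups were apart, whereas WT-GMP replicate 1, the shallowest library of its group, lay among the URE-GMP libraries. The log2 fold change was 0.46 in LSK with an SE of 0.12 (n = 3 per group, adjusted p = 0.00352) and 0.34 ± 0.12 in GMP (adjusted p = 0.0191). P2 of Runx1 was covered by a wide region at +127.6 kb, with 42.9 ± 4.0 CPM (SD) in WT-LSK against 54.0 ± 3.95 in URE-LSK, and 72.8 ± 12.4 in WT-GMP against 73.6 ± 6.36 in URE-GMP, and by a small neighbour at +128.8 kb with 6.43 ± 0.32, 10.5 ± 0.47, 10.3 ± 3.09 and 11.2 ± 1.25 CPM in the same order. In LSK both were higher in URE, by 0.33 ± 0.11 (adjusted p = 0.0179) and 0.71 ± 0.18 (adjusted p = 0.00356) on the log2 scale, and the genotypes overlapped in GMP. In WT, P2 was also more open in GMP than in LSK, by 0.76 ± 0.11 (adjusted p = 3.07e-05) at +127.6 kb, while P1 differed by 0.08 ± 0.12 between WT-LSK and WT-GMP.

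P1 of Runx2, the promoter of the bone isoform, was covered by a 588-base region. It held 6.11, 7.26 and 6.6 CPM in WT-LSK, against 11.3, 10.4 and 10.04 in URE-LSK. WT-GMP had 4.85, 4.53 and 4.38 CPM and URE-GMP 5.21, 5.76 and 5.02. The genotypes did not overlap in either cell type, yet the difference passed the test in LSK alone (log2 fold change 0.67 ± 0.15, adjusted p = 0.00118) and not in GMP (0.22 ± 0.15, adjusted p = 0.222), and the difference between these effects did not pass either (-0.45 ± 0.21, adjusted p = 0.166). GMP were lower than LSK at this promoter in both genotypes, by -0.54 ± 0.15 in WT (adjusted p = 0.00666) and -0.99 ± 0.15 in URE (adjusted p = 2.18e-05). P2 of Runx2, shared with the start of Runx2os1, was covered by a 2403-base region with 69.0 ± 0.771 CPM in WT-LSK against 85.2 ± 4.02 in URE-LSK (0.31 ± 0.1, adjusted p = 0.0131), and 73.3 ± 13.1 in WT-GMP against 85.7 ± 4.13 in URE-GMP (0.23 ± 0.1, adjusted p = 0.0495, and -0.01 with loess offsets).

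P1 of Runx3, whose region also holds the start of Gm16225, had 56.9, 66.7 and 61.3 CPM in WT-LSK, against 85.7, 78.1 and 72.8 in URE-LSK. It had 27.3, 37.3 and 46.9 CPM in WT-GMP, against 56.7, 54.5 and 65.4 in URE-GMP. URE was above WT in both cell types with no overlap, by 0.36 ± 0.14 (adjusted p = 0.0398) in LSK and 0.66 ± 0.14 (adjusted p = 0.000797) in GMP on the log2 scale, and GMP was below LSK in WT by -0.72 ± 0.14 (adjusted p = 0.000421). P2 of Runx3 held 57.2 ± 4.82 and 59.3 ± 6.6 CPM in LSK of WT and URE and 69.9 ± 18.1 and 63.8 ± 0.688 CPM in GMP of WT and URE, and none of its contrasts passed the test. No direction is given for its genotype effect, whose sign in LSK changed with the scaling and in GMP (-0.13) without WT-GMP replicate 1 (0.06).

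**Figure D1:**
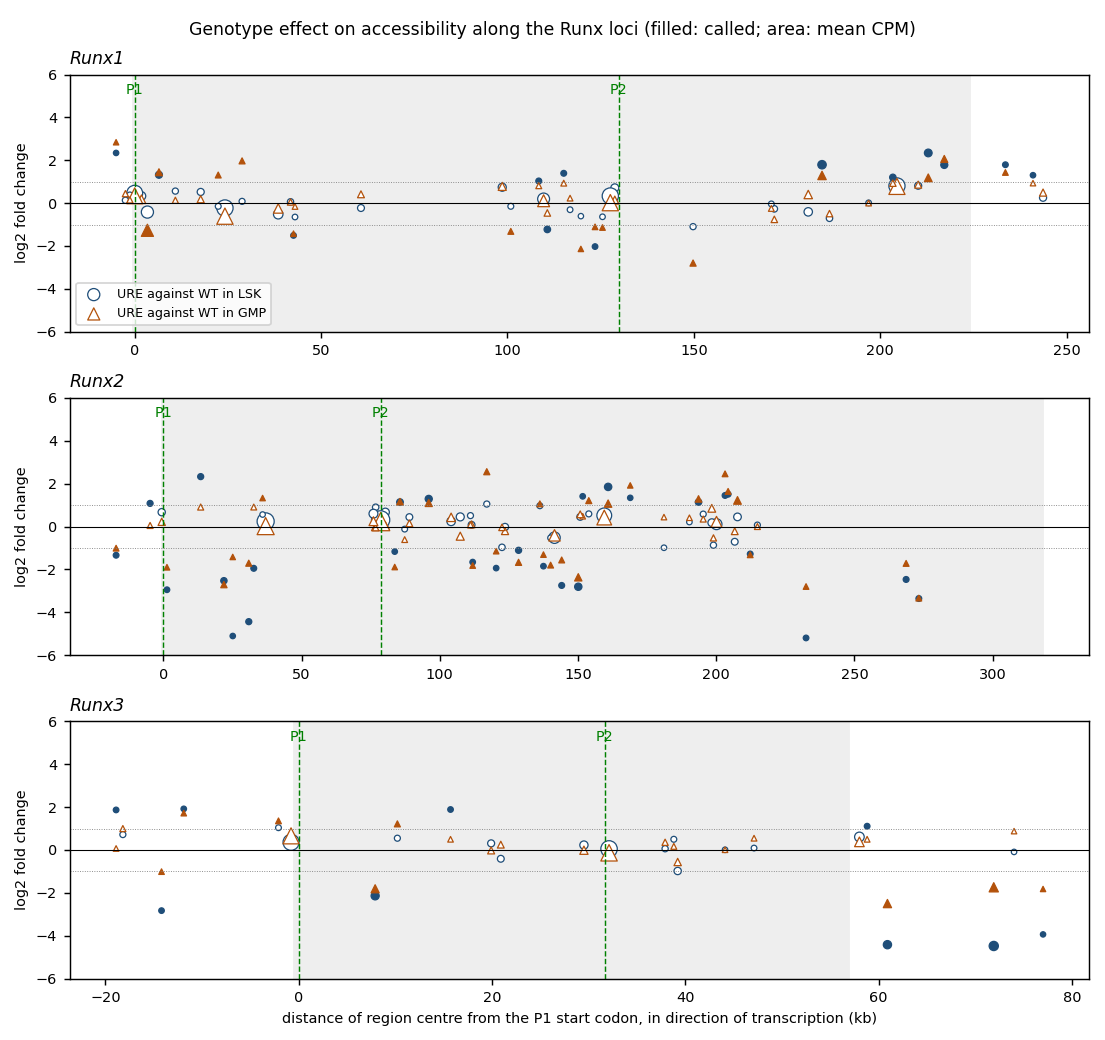
Log2 fold changes of URE against WT along the 3 loci, with the distance from the P1 start codon in kb on the x axis, circles for LSK and triangles for GMP, filled symbols for called regions, symbol area growing with mean CPM, grey for the gene body and dashed green lines at the P1 and P2 start codons. The promoter regions lie between the dotted lines at 1 and -1, while called regions of both signs are spread over the introns and flanks, with the largest losses at Runx2 and downstream of Runx3.

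Away from the promoters the picture was mixed. Over all 126 regions, 49 were called between the genotypes in LSK (24 higher and 25 lower in URE) and 52 in GMP (23 higher and 29 lower), which is 38.9% and 41.3% of them, near the 37.5% and 39.7% called among all regions (13.6% higher and 23.9% lower in LSK, 15.6% and 24.1% in GMP). Among the 116 non-promoter regions 48 were called in LSK and 51 in GMP, against 42.4% and 44.7% of all regions outside promoters. By gene, 10 regions of Runx1 were called higher and 3 lower in URE-LSK, and 8 higher and 7 lower in URE-GMP. At Runx2, 10 were higher and 17 lower in LSK, and 12 higher and 17 lower in GMP. At Runx3, 4 were higher and 5 lower in LSK, and 3 higher and 5 lower in GMP. In all, 14 regions were higher and 23 lower in both cell types, 0 were called in opposite directions (1 with loess offsets, GC offsets or without WT-GMP replicate 2, namely Runx2 +32.7 kb), and 62 were called in neither, while of all regions 8.45% were higher and 18.7% lower in both, 27.2% in sum. No share over all regions was computed for opposite calls or for regions called in neither, so those 2 counts have no background here. The 2 contrasts use different libraries.

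Of the 17 non-promoter regions with a mean of at least 10 CPM, 4 were called in LSK (1 higher, 3 lower) and 5 in GMP (1 higher, 4 lower), and of the 99 weaker regions 44 (22 higher, 22 lower) and 46 (21 higher, 25 lower). No share over all regions was computed at this bound, so these counts, and those by gene below, have no background here. Among regions with a mean of at least 2 CPM, 24 of the 85 at these loci were called in LSK and 25 in GMP, beside 21258 and 21858 of the 77944 such regions in all. Under offsets fitted to GC content 20 of 55 calls in LSK and 19 of 52 in GMP were lower in URE, and under loess offsets 17 of 47 and 18 of 53. Over all regions the lower share of calls fell too. In LSK it went from 63.8% to 48.2% with GC offsets and 47.5% with loess offsets, and in GMP from 60.6% to 47.7% and 45.5%. The balance of higher and lower calls thus depends on the scaling, at these loci as over all regions.

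**Figure D2:**
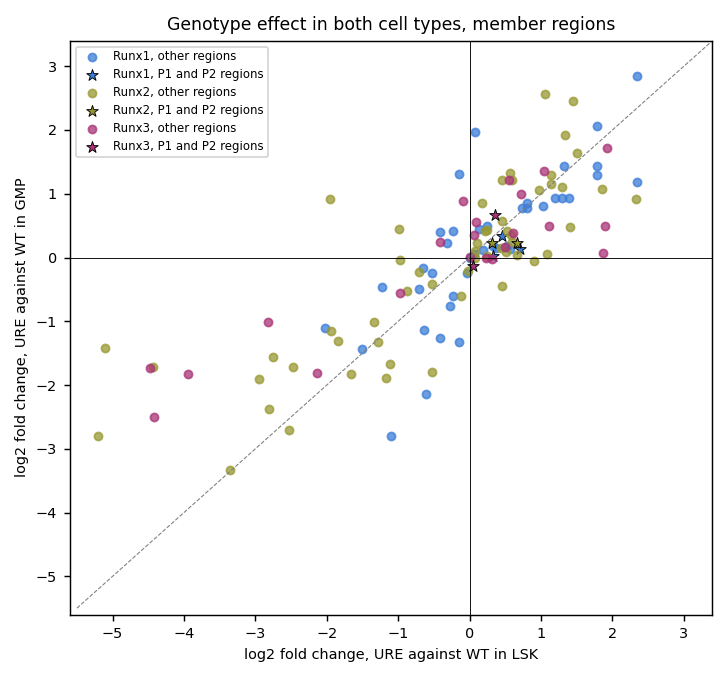
Log2 fold change of URE against WT in LSK (x axis) and in GMP (y axis) for each of the 126 regions, with stars for the 7 P1 and P2 regions, circles for other regions, colours for the genes and a dashed line of equal effects. The points above the line at the lower left, at Runx2 and Runx3, fell more in LSK than in GMP. No region was called in opposite directions in the 2 cell types as reported, although Runx2 +32.7 kb was with loess or GC offsets or without WT-GMP replicate 2. The share of opposite calls over all regions was not computed.

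Runx1 is known for an enhancer in its first intron that is active in blood stem cells and is named for its distance from the P1 start codon. The window of 22 to 25 kb downstream of that codon held 2 regions. The region at +24.2 kb, chr16:92800667-92802209, had the highest mean CPM of the non-promoter regions of the locus. Its central 300 bases are given on the plus strand and held none of the motifs searched (PU.1 GAGGAAGT, CEBP TTGCNNAA, ETS CCGGAAGT, the RUNX motif given above, AGATAA for GATA and the AP-1 motif), although the flanks of the region held 1 GATA copy. The search took fixed letter strings, so sites with other letters were missed. Whether these central bases are those of the enhancer was not tested.
Runx1 +24.2 kb, chr16:92801288-92801587: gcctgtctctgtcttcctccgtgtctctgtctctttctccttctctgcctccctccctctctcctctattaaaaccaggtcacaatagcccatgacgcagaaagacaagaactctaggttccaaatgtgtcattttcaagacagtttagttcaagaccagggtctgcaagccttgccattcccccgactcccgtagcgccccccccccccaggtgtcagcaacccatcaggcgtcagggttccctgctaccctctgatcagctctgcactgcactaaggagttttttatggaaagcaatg
CPM at +24.2 kb were 66.1, 64.7 and 65.0 in WT-LSK, against 58.5, 55.7 and 52.4 in URE-LSK. In GMP they were 85.8, 63.7 and 73.5 in WT and 46.2, 50.3 and 49.5 in URE. All URE libraries were below all WT libraries in both cell types. The log2 fold change was -0.61 ± 0.09 in GMP (adjusted p = 3.21e-05), short of the fold that a call required, and -0.23 ± 0.09 in LSK (adjusted p = 0.0384), where it was 0.06 with offsets for GC content. The difference between these effects was -0.38 ± 0.13 (adjusted p = 0.0561). The second region of the window, at +22.4 kb, was much weaker. It had 0.97 ± 0.0219 CPM in WT-LSK against 0.883 ± 0.304 in URE-LSK, and rose in GMP from 1.95 ± 0.344 to 4.78 ± 0.718 CPM (log2 fold change 1.31 ± 0.24, adjusted p = 0.000203), so the neighbours within the window moved in opposite directions in GMP. Its interaction was 1.46 ± 0.36 (adjusted p = 0.0124).

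The region at +3.4 kb in the first intron was singled out after its values were seen, as the member region with the most copies of the PU.1 motif. It spans chr16:92821637-92822894 and held 2 PU.1, 2 RUNX and 1 CEBP copy, and 1.36% of regions of like length held 2 or more PU.1 copies. A 300-base window on the plus strand shows a PU.1 and a RUNX copy in capitals.
Runx1 +3.4 kb, chr16:92821805-92822104: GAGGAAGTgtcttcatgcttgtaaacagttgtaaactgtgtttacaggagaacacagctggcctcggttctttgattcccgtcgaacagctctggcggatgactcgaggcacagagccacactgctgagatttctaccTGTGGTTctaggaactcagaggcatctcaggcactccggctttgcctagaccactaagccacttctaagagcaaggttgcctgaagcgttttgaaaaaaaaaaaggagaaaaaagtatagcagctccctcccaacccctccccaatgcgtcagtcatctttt
Accessibility at +3.4 kb was 43.2, 41.1 and 52.5 CPM in WT-LSK, against 34.7, 38.5 and 29.3 CPM in URE-LSK. It was 29.1, 25.7 and 38.9 CPM in WT-GMP, against 11.6, 11.7 and 15.7 CPM in URE-GMP. The genotypes were apart in both cell types, and the loss was called in GMP (log2 fold change -1.27 ± 0.16, adjusted p = 6.96e-06) and smaller in LSK (-0.42 ± 0.16, adjusted p = 0.0322), with a difference of -0.85 ± 0.22 between the effects (adjusted p = 0.0162). With offsets for GC content the GMP value was -0.97, just under the fold required.

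Other intronic regions of Runx1 opened in URE. The non-promoter region with the second highest CPM, at +204.5 kb (chosen after its values were seen), had 42.0, 42.4 and 41.1 CPM in WT-LSK, against 78.4, 71.9 and 67.8 in URE-LSK. It had 51.0, 44.0 and 44.0 CPM in WT-GMP, against 77.7, 75.8 and 84.5 in URE-GMP. URE was far above WT in both cell types, at a log2 fold change of 0.80 ± 0.08 (adjusted p = 4.95e-07) in LSK and 0.78 ± 0.08 (adjusted p = 9.17e-07) in GMP, without reaching the fold for a call, which the LSK value just passed with offsets for GC content. At +184.4 kb, CPM rose in LSK from 2.3 ± 0.454 to 7.82 ± 1.49, and in GMP from 10.3 ± 1.16 to 25.3 ± 1.71 (log2 fold changes 1.79 ± 0.18 and 1.29 ± 0.17). At +217.2 kb, with 2 CEBP and 2 AP-1 copies, CPM rose in LSK from 2.43 ± 0.5 to 8.47 ± 0.339, and in GMP from 2.46 ± 0.0597 to 10.2 ± 0.34 (1.78 ± 0.17 and 2.06 ± 0.17). All 4 of these changes had an adjusted p of 7.65e-06 or less. Beyond the 3′ end, the region at +233.6 kb rose from 0.139 ± 0.0955 to 0.513 ± 0.264 CPM in LSK, where the WT libraries held 2 to 12 reads, and from 1.58 ± 0.133 to 4.26 ± 0.366 CPM in GMP (1.43 ± 0.31, adjusted p = 0.000781). A region at +28.8 kb with 2 CEBP copies rose in GMP from 1.81 ± 0.749 to 7.0 ± 1.83 CPM (log2 fold change 1.97 ± 0.32), against 0.679 ± 0.25 and 0.731 ± 0.132 CPM in LSK, and the interaction of 1.89 ± 0.49 passed the test (adjusted p = 0.0158). The 3 regions of the upstream flank held 1 called gain in each cell type, of 2.34 in LSK and 2.84 in GMP on the log2 scale. The GMP value was the highest of the 126 regions, although the rule for naming regions left it out.

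In LSK the called losses at Runx1 were at regions with a mean under 10 CPM. The largest was at +123.5 kb, which is given whole on the plus strand and held no motif searched.
Runx1 +123.5 kb, chr16:92702004-92702223: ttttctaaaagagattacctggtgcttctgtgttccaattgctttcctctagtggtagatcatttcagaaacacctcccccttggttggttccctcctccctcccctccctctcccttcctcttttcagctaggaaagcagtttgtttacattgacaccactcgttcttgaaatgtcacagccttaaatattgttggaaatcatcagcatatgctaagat
Its CPM fell from 1.24 ± 0.334 to 0.31 ± 0.0864 in LSK (log2 fold change -2.03 ± 0.36, adjusted p = 0.000183) and from 2.62 ± 0.817 to 1.2 ± 0.283 in GMP (-1.11 ± 0.31, adjusted p = 0.00495). The GMP call was lost without WT-GMP replicate 1 (-0.93) or URE-GMP replicate 3 (-0.96), and with offsets for GC content (-0.63) or loess offsets (-0.41). At +42.6 kb, a region with a PU.1 copy, CPM fell in LSK from 1.25 ± 0.194 to 0.439 ± 0.116, and in GMP from 2.56 ± 0.676 to 0.935 ± 0.31, by -1.51 ± 0.34 (adjusted p = 0.0013) and -1.43 ± 0.3 (adjusted p = 0.000765) on the log2 scale, calls that offsets for GC content or loess offsets ended. A GMP element at +149.8 kb showed the largest fall in that cell type, with 10.6, 11.3 and 7.08 CPM in WT-GMP, against 0.84, 2.85 and 0.339 CPM in URE-GMP (log2 fold change -2.8 ± 0.46, adjusted p = 8.17e-05). In LSK it held 10 to 31 reads per library, or 0.631 ± 0.0585 CPM in WT and 0.291 ± 0.0842 in URE.

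**Figure D3:**
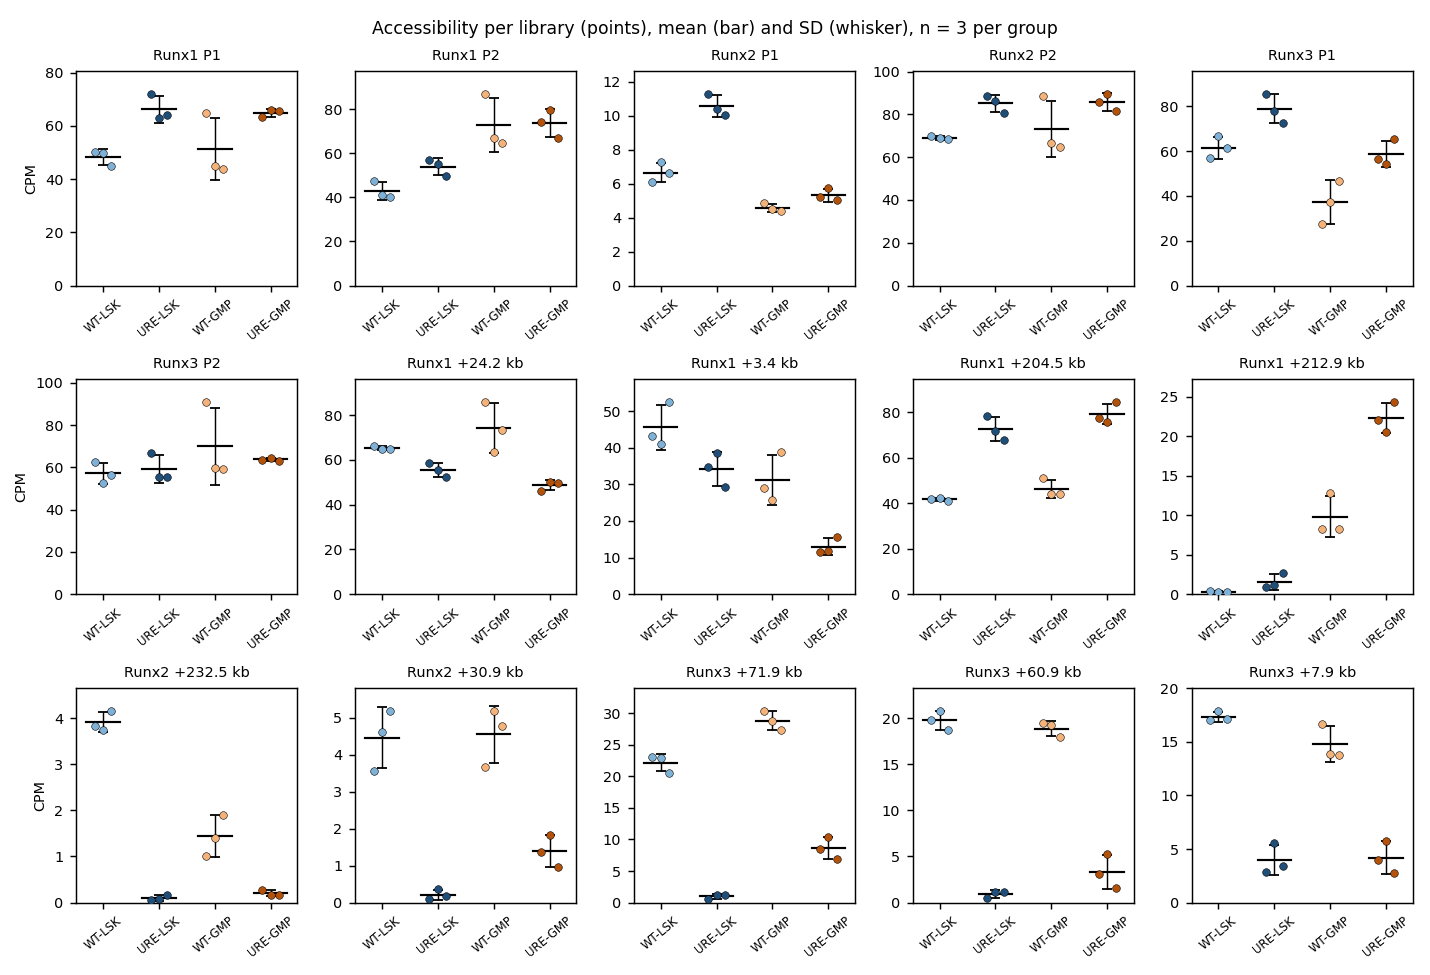
CPM (y axis, from 0) in each library of the 4 groups at the widest P1 and P2 region of each gene and at 9 further regions, with a bar for the mean and a whisker for 1 SD of 3 libraries. None of the P1 and P2 regions was called, Runx1 +204.5 kb is higher in every URE library, and the Runx3 regions at +7.9, +60.9 and +71.9 kb are lower in every URE library.

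Runx2 held the largest fitted losses of the 3 genes. At +232.5 kb, in an intron downstream of P2, a 243-base region with 1 PU.1 copy was nearly closed in URE. It is given whole on the plus strand, with the PU.1 copy (here on the minus strand) in capitals.
Runx2 +232.5 kb, chr17:44581610-44581852: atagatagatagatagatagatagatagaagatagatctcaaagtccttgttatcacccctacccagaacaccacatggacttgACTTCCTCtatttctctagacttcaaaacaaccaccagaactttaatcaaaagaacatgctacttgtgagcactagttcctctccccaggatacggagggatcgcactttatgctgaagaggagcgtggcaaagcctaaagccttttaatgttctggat
Its CPM were 3.83, 3.75 and 4.16 in WT-LSK, against 0.0476, 0.0837 and 0.171 in URE-LSK, the latter from 2 to 8 reads per library. They were 1.0, 1.41 and 1.91 in WT-GMP, against 0.28, 0.173 and 0.17 in URE-GMP. No URE library reached a WT library of its cell type, and the log2 fold change was -5.2 ± 0.39 (adjusted p = 3e-08) in LSK and -2.8 ± 0.36 in GMP (adjusted p = 6.64e-06). Only 1130 of all regions had a lower value in LSK. A weaker region at +25.1 kb, chr17:44789054-44789283, with 1 PU.1 copy and a mean under 1 CPM (named after its values were seen), had 0.813, 1.31 and 0.744 CPM in WT-LSK, against 1 read in each URE-LSK library (-5.11 ± 0.61, adjusted p = 3.08e-06, a value that depends on the prior count of the fit). In GMP its loss was -1.42 ± 0.36 (adjusted p = 0.00273), and its interaction of 3.69 ± 0.76 (adjusted p = 0.00395) was the largest of the 126 regions. At +30.9 kb, between P1 and P2 in a part shared with Supt3, CPM were 3.57, 4.61 and 5.19 in WT-LSK, against 0.0952, 0.363 and 0.171 in URE-LSK. In GMP they were 3.68, 5.18 and 4.79 in WT and 1.38, 1.82 and 0.969 in URE. The loss was seen in every URE library and was larger in LSK (-4.44 ± 0.37, adjusted p = 7.62e-08) than in GMP (-1.71 ± 0.29, adjusted p = 0.000102), with an interaction of 2.73 ± 0.48 (adjusted p = 0.00122). The region at +273.3 kb fell in both cell types, in LSK from 4.09 ± 0.47 to 0.391 ± 0.143 CPM, and in GMP from 2.77 ± 0.551 to 0.278 ± 0.116 CPM, by -3.36 ± 0.31 and -3.34 ± 0.32 on the log2 scale, with an interaction of 0.02 ± 0.59 (adjusted p = 0.987).

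Other weak regions of Runx2 opened. In LSK the largest gain was at +13.5 kb, from 0.797 ± 0.218 to 4.13 ± 0.767 CPM (log2 fold change 2.33 ± 0.25, adjusted p = 9.49e-07), with 1.93 ± 0.203 and 3.64 ± 0.638 CPM in GMP, where the gain was called with loess offsets (1.11), with offsets for GC content (1.44) and without URE-GMP replicate 2 (1.02). In GMP it was at +117.0 kb, from 1.51 ± 0.834 to 8.94 ± 0.805 CPM (2.56 ± 0.36, adjusted p = 1.67e-05), followed by +203.2 kb, from 0.974 ± 0.345 to 5.3 ± 0.55 CPM (2.46 ± 0.29, adjusted p = 3.78e-06). At +160.9 kb, CPM rose in LSK from 0.349 ± 0.0921 to 1.3 ± 0.909 (1.85 ± 0.43, adjusted p = 0.00178) and in GMP from 8.62 ± 1.99 to 18.1 ± 0.307 (1.07 ± 0.3, adjusted p = 0.00629). The GMP call was lost without WT-GMP replicate 3 (0.91), by library size (0.956), with TMM on promoters (0.94) and among regions of at least 2 CPM (0.996). It was also lost when tested against the fold threshold (glmTreat, adjusted p = 0.486). A neighbour at +32.7 kb fell in LSK from 1.19 ± 0.0975 to 0.316 ± 0.259 CPM (-1.95 ± 0.4, adjusted p = 0.000593), whereas it had 2.32 ± 0.562 and 4.36 ± 0.687 CPM in WT-GMP and URE-GMP (0.91 ± 0.31, adjusted p = 0.0181, under the fold for a call). That gain in GMP was called with loess offsets (1.36), with offsets for GC content (1.37, and 1.39 with the replicate block) and also without WT-GMP replicate 2.

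The strongest non-promoter regions of Runx2 had smaller fold changes than the weak regions named above. At +159.5 kb, its non-promoter region of highest CPM, with 3 AP-1, 2 CEBP and 1 PU.1 copy, CPM were 47.4, 47.9 and 40.7 in WT-LSK, against 69.0, 64.5 and 61.3 in URE-LSK. In WT-GMP they were 39.2, 33.9 and 38.1 and in URE-GMP 48.1, 47.7 and 52.6. URE lay above WT throughout, by 0.52 ± 0.09 (adjusted p = 9.67e-05) in LSK and 0.42 ± 0.09 (adjusted p = 0.000677) in GMP on the log2 scale. The region of second highest CPM, at +141.5 kb (chosen after its values were seen), had the opposite sign, with 25.6 ± 2.32 and 17.8 ± 1.96 CPM in WT-LSK and URE-LSK and 36.1 ± 1.8 and 27.2 ± 0.93 CPM in WT-GMP and URE-GMP (-0.52 ± 0.1, adjusted p = 0.000358, and -0.41 ± 0.1, adjusted p = 0.00222). None of the 4 non-promoter regions of Runx2 with at least 10 CPM was called between the genotypes in either cell type, but with offsets for GC content +159.5 kb reached 1.01 in LSK and was called higher in URE.

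At Runx3, 3 of the 5 non-promoter regions with a mean of at least 10 CPM were called lower in URE in both cell types. The first, at +71.9 kb, lies in the downstream flank and is 631 bases wide, and its central 300 bases on the plus strand held none of the motifs searched.
Runx3 +71.9 kb, chr4:135192879-135193178: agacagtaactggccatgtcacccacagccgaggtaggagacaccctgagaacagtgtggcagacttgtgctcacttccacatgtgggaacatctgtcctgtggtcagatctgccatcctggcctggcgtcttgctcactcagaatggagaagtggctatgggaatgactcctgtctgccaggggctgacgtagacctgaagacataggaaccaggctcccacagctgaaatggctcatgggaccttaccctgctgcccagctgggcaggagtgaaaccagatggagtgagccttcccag
Its CPM were 23, 22.9 and 20.6 in WT-LSK, against 0.571, 1.23 and 1.17 in URE-LSK. In GMP they were 30.4, 28.8 and 27.3 in WT and 8.44, 10.4 and 6.98 in URE. The element was thus nearly closed in URE-LSK and partly closed in URE-GMP, with log2 fold changes of -4.48 ± 0.22 (adjusted p = 1.52e-09) and -1.74 ± 0.18 (adjusted p = 1.07e-06) and an interaction of 2.74 ± 0.28 (adjusted p = 2.37e-05). At +60.9 kb, in the same flank, CPM were 19.8, 20.8 and 18.7 in WT-LSK, against 0.476, 1.17 and 1.13 in URE-LSK. In WT-GMP they were 19.5, 19.2 and 17.9 and in URE-GMP 3.1, 5.24 and 1.57. The pattern was that of +71.9 kb, with -4.42 ± 0.36 (adjusted p = 6.02e-08) in LSK and -2.5 ± 0.31 (adjusted p = 6e-06) in GMP. In the intron between P1 and P2, the region at +7.9 kb had 17, 17.9 and 17.1 CPM in WT-LSK, against 2.9, 5.58 and 3.4 CPM in URE-LSK. It had 16.7, 13.9 and 13.8 CPM in WT-GMP, against 4.0, 5.79 and 2.74 CPM in URE-GMP. Here the losses were closer in size, at -2.14 ± 0.25 (adjusted p = 2.77e-06) and -1.81 ± 0.25 (adjusted p = 1.44e-05), with an interaction of 0.32 ± 0.35 (adjusted p = 0.58).

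The gene nearest to the 2 flank regions by start site was Runx3 itself. Another region of the flank, at +58.0 kb, went the other way, with 9.38 ± 1.07 and 14.3 ± 0.613 CPM in WT-LSK and URE-LSK and 19.2 ± 2.05 and 25 ± 0.509 CPM in WT-GMP and URE-GMP (0.61 ± 0.12, adjusted p = 0.000376, and 0.38 ± 0.12, adjusted p = 0.00946). Upstream of P1, the region at -14.2 kb fell in LSK from 2.9 ± 0.423 to 0.405 ± 0.0417 CPM (-2.83 ± 0.28, adjusted p = 4.63e-07) and from 1.25 ± 0.266 to 0.625 ± 0.114 CPM in GMP, where the value of -1.01 ± 0.27 stood at the fold threshold and was under it without WT-GMP replicate 2 (-0.87) or 3 (-1.0) and without URE-GMP replicate 2 (-0.97) or 3 (-0.92). It was also under the fold with loess offsets (-0.25, adjusted p = 0.438), RLE size factors (-0.96), offsets for GC content (-0.97) and DESeq2 (-0.97). The region at -11.9 kb rose in LSK from 0.678 ± 0.129 to 2.61 ± 0.27 CPM, and in GMP from 0.308 ± 0.0472 to 1.02 ± 0.179 CPM (1.92 ± 0.27 and 1.72 ± 0.3). At +15.7 kb a gain was called in LSK, from 0.838 ± 0.599 to 3.17 ± 1.03 CPM (1.89 ± 0.41, adjusted p = 0.00103), and at -2.1 kb in GMP, from 1.84 ± 0.762 to 4.65 ± 0.701 CPM (1.36 ± 0.34, adjusted p = 0.00268).

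Summed over the 22 non-promoter regions of Runx3, accessibility was 126, 119 and 106.0 CPM in WT-LSK, against 73.5, 69.3 and 77.4 CPM in URE-LSK. In GMP it was 139.0, 129.0 and 127.0 CPM in WT and 96.8, 102.0 and 94.7 CPM in URE. The sum in URE was 0.626 of that in WT in LSK and 0.743 of it in GMP, with no overlap of libraries in either. The 5 regions called lower in both cell types held 63.8 ± 3.21 CPM in WT-LSK against 6.38 ± 2.02 in URE-LSK, and 64.4 ± 3.62 and 16.9 ± 5.13 in GMP. The other 17 held 53.4 ± 7.48 and 67.0 ± 5.46 CPM in LSK and 67.4 ± 3.18 and 81.1 ± 1.4 in GMP. Since the 5 were picked by their calls, this split is a description of where the sum changed.

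**Figure D4:**
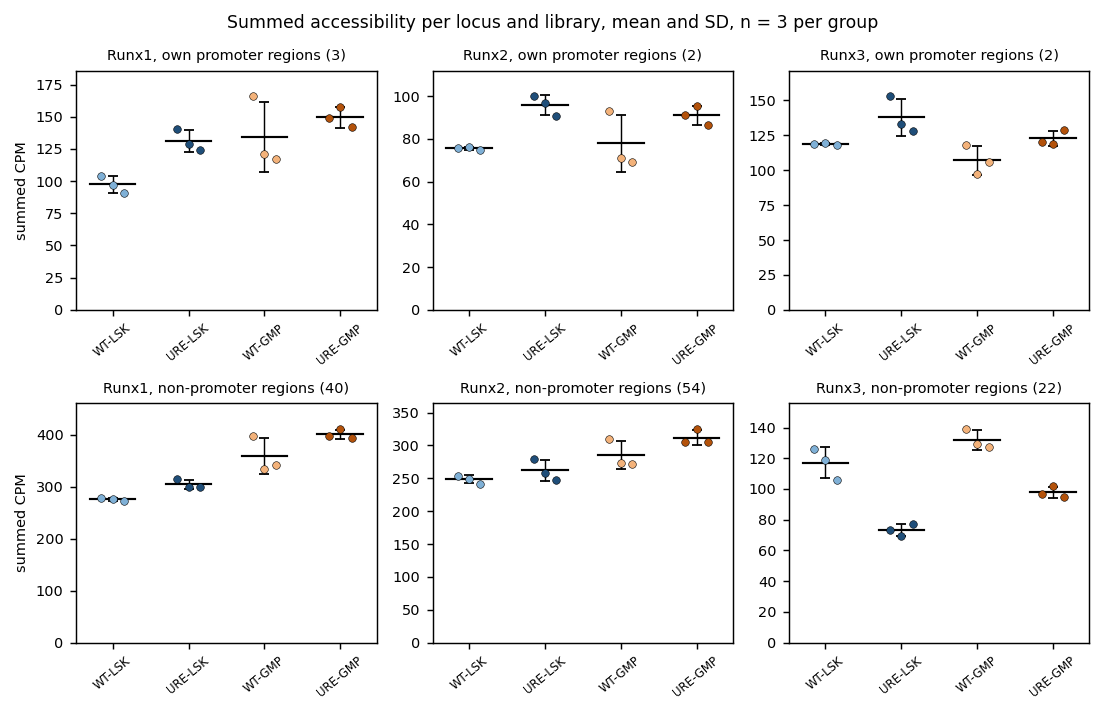
Summed CPM per library (points; bar, mean; whisker, 1 SD of 3 libraries) over the P1 and P2 regions (upper row) and over the non-promoter regions (lower row) of each gene in the 4 groups, with each y axis starting at 0. The non-promoter sum of Runx3 is lower in every URE library, whereas the genotypes overlap in GMP for Runx1 and in both cell types for Runx2.

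Over all 24 regions of Runx3, promoters included, the sum was 236.0 CPM in WT-LSK against 212.0 in URE-LSK (0.896 of WT, with overlapping libraries) and 239.0 CPM in WT-GMP against 221.0 in URE-GMP (0.923 of WT, with no overlap). The sums over its P1 and P2 regions went the other way, at 1.16 of WT in LSK and 1.15 in GMP. Over the 40 non-promoter regions of Runx1 the sum was 276.0 ± 2.66 CPM in WT-LSK against 304.0 ± 9.06 in URE-LSK, and 358.0 ± 34.1 in WT-GMP against 401.0 ± 8.79 in URE-GMP. Over the 54 of Runx2 it was 248.0 ± 6.27, 262.0 ± 16.3, 286.0 ± 21.6 and 312.0 ± 11.5 CPM. The Runx1 libraries of the 2 genotypes were apart in LSK and overlapped in GMP, where WT-GMP replicate 1 had 398.0 CPM against 335.0 and 342.0 in the other WT libraries, and those of Runx2 overlapped in both cell types.

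The genotype effect differed between the cell types by the interaction test at 16 regions (11 with a positive and 5 with a negative difference of GMP minus LSK), or 12.7% of the 126 against 14.0% of all regions (8.96% positive and 5.03% negative). By gene these were 3 regions of Runx1, 8 of Runx2 and 5 of Runx3. The number was 10 without URE-LSK replicate 1 or without URE-GMP replicate 1. At the Runx2 regions at +25.1, +30.9 and +232.5 kb and the Runx3 regions at -14.2, +60.9, +71.9 and +77.0 kb, all of them called lower in URE in both cell types, the positive sign means a smaller loss in GMP.

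Between the cell types themselves, 49 of the 126 regions were called in WT (34 higher and 15 lower in GMP, with 37.8% called among all regions, 21% higher and 16.8% lower) and 58 in URE (42 higher and 16 lower, with 49.1% called, 27.6% higher and 21.6% lower). The higher calls in WT were 17 at Runx1, 14 at Runx2 and 3 at Runx3, out of 44, 58 and 24 regions. Of the 23 non-promoter Runx1 regions between P1 and P2, 11 were higher and 0 lower in WT-GMP. The largest step of each locus is given as chosen after the values were seen. At Runx1 it was at +212.9 kb, the start of the gene Gm26626, from 0.367, 0.286 and 0.261 CPM in WT-LSK to 8.28, 12.8 and 8.27 CPM in WT-GMP (log2 fold change 5.0 ± 0.39, adjusted p = 1.43e-07). The same region was higher in URE than in WT in LSK, at 0.833, 1.09 and 2.65 CPM, and in GMP, at 22.1, 20.5 and 24.3 CPM. At Runx2 it was at +160.9 kb (4.56 ± 0.41, adjusted p = 3.82e-07) and at Runx3 at -2.1 kb (2.51 ± 0.43, adjusted p = 0.000139). Both regions were also called higher in URE-GMP than in WT-GMP, but neither of these calls held when tested against the fold threshold. That of Runx2 +160.9 kb was lost under further settings given above.

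The 126 regions were searched for the 6 motifs named above, on both strands, with AP-1 read as TGANTCA. PU.1 copies were found in 14 of them (11.1%, against 10.5% of all regions), RUNX in 26 (20.6% and 17.3%), CEBP in 31 (24.6% and 20.5%), GATA in 25 (19.8% and 15.7%), AP-1 in 21 (16.7% and 15.1%) and the ETS motif in 0 (1.88% of all regions). Of the 14 with a PU.1 copy, 4 had a called loss and 1 a called gain in URE-LSK, and 5 a loss and 1 a gain in URE-GMP, while over all regions with a PU.1 copy 51.9% were lower and 3.3% higher in LSK and 47.2% lower and 4.45% higher in GMP. The 14 included Runx2 +159.5 kb, which was higher in URE. Of the 25 regions with a GATA copy, 9 were called higher and 1 lower in LSK of URE (15.9% and 22.9% of all regions with one), and 7 higher and 3 lower in GMP (13.6% and 25.8%). For RUNX the calls were 3 higher and 3 lower in LSK (22.2% and 19.1% over all regions with a copy) and 3 and 5 in GMP (19.7% and 20.3%). For CEBP they were 7 and 2 in LSK (16.1% and 20.7%) and 8 and 3 in GMP (23.7% and 17.9%), and for AP-1 6 and 1 in LSK (19.9% and 19.7%) and 5 and 2 in GMP (19.0% and 21.6%).

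RUNX proteins act through partners, and the promoters of 18 cofactor genes were read out beside the Runx loci. All 18 had a region at a start site, and 0 were called between the genotypes. Among all promoter regions 11.5% were called in LSK and 13.0% in GMP. At an adjusted p under 0.05 in edgeR's quasi-likelihood test 12 were higher and 0 lower in URE-LSK, and 8 higher and 0 lower in URE-GMP. Of all promoter regions 50.2% passed in LSK and 50.9% in GMP, in either direction. The medians of the 18 were 0.29 and 0.18 on the log2 scale, beside 0.22 and 0.16 over all promoter regions. Cbfb, the common partner of the 3 proteins, had 73.8 CPM in WT-LSK and 89.5 in URE-LSK (0.28, adjusted p = 0.00189) and 78.2 and 83.8 CPM in GMP (0.10, adjusted p = 0.197). Ep300, a histone acetyltransferase, had 89.5 and 122.0 CPM in LSK (0.44) and 108.0 and 150.4 CPM in GMP (0.47). For Runx1t1, the ETO gene, the difference was in LSK, with 17.7 and 25.5 CPM (0.53, adjusted p = 0.00193), against 13.9 and 14.0 CPM in GMP.

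The log2 of the summed CPM of each Runx locus was set against that of 5866 or more other protein-coding genes with at least 10 regions, over the 12 libraries. Closest to Runx1 were Rhog (Pearson r = 0.993), Lrrc29 (0.991) and Tapbp (0.99), and among the closest to Runx2 were Chd1 (0.981) and Sirt2 (0.98). The likeness of Runx3 to any other locus was lower, the highest being Usp15 (0.872), Nenf (0.864) and Trak1 (0.86). These values describe 12 libraries in 4 groups that share depth and scaling.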

How the data were processed

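ATAC-seq of sorted LSK and GMP from WT and UREd/d mice was analysed in 12 libraries, with groups taken from the labels. The authors trimmed reads with cutadapt, aligned them with Bowtie2 to GRCm38, called peaks per group with Genrich, merged them with bedtools and deposited raw read counts per region made with featureCounts. Region starts were read as counted from 0 and are printed counted from 1. Counts were scaled by TMM and fitted over all 121336 regions and 12 libraries with edgeR 4.0.16 (R 4.3.3; 1 coefficient per group, quasi-likelihood test, Benjamini-Hochberg adjustment), and DESeq2 1.42.0 was an alternative. A call needed an adjusted p under 0.05 and an absolute log2 fold change over 1. The fit was tested on simulated data. Genes and transcripts came from GENCODE M21 basic, promoters being within 500 bp of a start.

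Members and lists were chosen with earlier results of these data known. Named were all P1 and P2 regions, those in the Runx1 enhancer window, per gene and cell type the 2 called, non-overlapping non-promoter regions with the largest change in each direction and a mean of at least 1 CPM, the non-promoter region of highest CPM, the 2 interaction calls of smallest p, the cofactor promoters and the 3 most alike loci per gene, of which 1 is not reported here.

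Labels number the replicates 1 to 3 in each group but do not say whether LSK and GMP of a number came from the same mouse. Deviations from the group means of same-numbered WT-LSK and WT-GMP libraries correlated at 0.181, 0.191 and 0.207. The reported fit did not use this pairing. A replicate block, fitted as an alternative, gave 48 calls for GMP against LSK in WT, beside 49 without it. No intervals for counting error are given. A floor of 3 reads was a setting and not a measured limit of detection. Some values above rest on fewer reads in a library, as at Runx2 +25.1 kb and +232.5 kb in URE-LSK. P-values rest on a spread between replicate libraries that was estimated jointly over all 4 groups, not on the 3 libraries of a group alone. The reported fit treated the 12 libraries as independent.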

Additional observations from a re-analysis of the deposited data

Results flagged for a closer look

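At 9 named regions the genotype effect differed between the cell types by edgeR's interaction test, given here as the log2 effect in GMP minus that in LSK. The difference was positive at 5 of the named regions where URE was called lower in both cell types and less so in GMP, namely 2.74 at Runx3 +71.9 kb, 1.92 at Runx3 +60.9 kb, 2.73 at Runx2 +30.9 kb, 2.4 at Runx2 +232.5 kb and 1.82 at Runx3 -14.2 kb, the last with a GMP effect at the fold threshold. At Runx2 +32.7 kb it was 2.86, where the effect was -1.95 in LSK and 0.91 in GMP. At Runx1 +22.4 kb and Runx1 +28.8 kb it was 1.46 and 1.89, with a gain called in GMP and LSK effects of -0.15 and 0.08 that did not pass the test. The single negative difference was -1.42 at Runx2 +13.5 kb, where the gain was larger in LSK. The 9 were listed because they are named regions called in this contrast, and several were named for that call, so their number is not a result. In this contrast 16 of the 126 regions (12.7%) were called, beside 14.0% of all regions.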

How the results depend on the processing

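Of 2296 values of the 93 named results under alternative settings, 2149 kept their direction and side of the threshold, 41 lost and 72 gained a call, and 34 changed sign. The cause of these changes was not tested. Some of these settings had a fixed outcome. All 121336 regions passed the filter on low counts, so the fit without it was the same. Dropping the fold threshold could only add calls. The tally is therefore a description and not a measure of how firm the results are. Of the 126 regions, 82, 78 and 88 passed without a fold threshold in LSK, in the WT step from LSK to GMP and in the URE step. Of all 121336 regions, 68896, 71397 and 82487 did so. Testing against the fold threshold (glmTreat) left 29 calls in LSK, 27 in GMP, 19 in the WT step and 4 interactions, beside 31424, 32733, 28352 and 3703 of the 121336 regions. Among regions with a mean of at least 2 CPM, of which there were fewer, 24, 25, 27, 35 and 9 were called in LSK, GMP, the WT step, the URE step and the interaction, beside 21258, 21858, 22035, 31545 and 10749 of all 77944 such regions. The gene bodies without extension held 10 interaction calls among 107 regions, beside 14.0% called among all regions. Leaving out 1 library gave 47 to 52 calls in LSK, 48 to 54 in GMP, 41 to 49 and 57 to 66 in the steps and 10 to 18 interactions. With the replicate block the counts were 51, 51, 48, 59 and 16, beside 45942, 48370, 46006, 59666 and 18807 of all 121336 regions. Between the LSK groups same-numbered libraries correlated at -0.0616 to 0.102, and between the GMP groups at 0.0997 to 0.349. In the URE step the range was 0.0616 to 0.273, beside 0.181 to 0.207 in the WT step. Outside the WT step not every library correlated best with its own number, and what the numbers share was not tested. The block changed 1 named call without GC offsets, Runx3 -2.1 kb in LSK (1.091). The share of calls lower in URE was 51.0% in LSK and 55.8% in GMP, against 36.2% and 34.0% with loess offsets, 36.4% and 36.5% with GC offsets, and 65.5% in LSK with glmTreat. Over all regions it was 63.8% and 60.6%, against 47.5% and 45.5% with loess offsets. It was 48.2% and 47.7% there with GC offsets, and 72.5% in LSK with glmTreat. GC offsets moved the median of all regions from 0.14 to 0.28 in LSK and from 0.06 to 0.2 in GMP.

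All log2 values that changed sign were small in the reported fit. Runx1 P2 (+127.6 kb) in GMP was -0.098 by library size, -0.113 with TMM on promoters, -0.197 with loess offsets, -0.102 with GC offsets, -0.057 among regions of at least 2 CPM, -0.096 with the replicate block and GC offsets, and -0.045 to 0.124 without 1 library. Runx2 P2 (+78.6 kb) in GMP was -0.011 with loess offsets. Runx3 P2 (+32.1 kb) in LSK was -0.002 with the LSK libraries alone, -0.072 by library size, -0.13 with TMM on promoters, -0.215 with loess offsets, -0.154 with GC offsets, -0.156 with the block and GC offsets, and -0.064 to 0.098 without 1 library, and in GMP it was -0.218 to 0.063 without 1 library. In LSK, Runx1 +24.2 kb was 0.062 with GC offsets and 0.06 with the block and GC offsets. Runx1 +22.4 kb in LSK was 0.162 with loess offsets, 0.311 with GC offsets, 0.299 with the block and GC offsets, and -0.413 to 0.072 without 1 library. Runx1 +28.8 kb in LSK was -0.035 by library size, -0.089 with TMM on promoters and -0.159 to 0.317 without 1 library. Depth limits regions under 1 CPM, where a library could hold fewer than 10 reads.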
